A study of Rattus norvegicus with 6 samples.

Results

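The 34 genes described here encode the enzymes of sterol and fatty acid synthesis and the proteins that regulate them. They were chosen by symbol from the deposited count table, all 34 were found in it, and they make up 34 of its 14475 genes. The list was proposed with the difference between the old and the young libraries already known, so its values in that comparison are a description and no test on the list is given. The libraries came from vascular smooth muscle (VSM) cells grown from the soleus feed artery (SFA), the vessel that supplies blood to the soleus muscle, of male Fischer-344 rats. There were 3 cultures from young rats (4 months) and 3 from old rats (24 months), no genetic change is stated, and all were grown in medium with fetal bovine serum and given no treatment. Each culture gave 1 library of polyadenylated RNA, and the culture passage at which RNA was taken is not given in the sources used here. The comparison asks which genes differ with the age of the rat in cells that shared the same medium. Levels are given as CPM (library counts scaled to a common total), scaled between libraries by the trimmed mean of M values (TMM), in the order of replicates 1, 2 and 3, and fold changes are log2 values of old over young with their standard error (SE).

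Cells make cholesterol from acetyl-CoA through mevalonate, squalene and lanosterol, and make fatty acids from the same acetyl-CoA through malonyl-CoA. Both routes are controlled by the sterol regulatory element binding proteins (SREBPs), membrane-bound factors that SCAP escorts from the endoplasmic reticulum to the Golgi, where proteases release the part that enters the nucleus. When sterols are plentiful, the INSIG proteins hold SCAP back, and the products of Srebf1 and Srebf2 are known to favor genes of fatty acid and of sterol synthesis, respectively.

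Of the 34 members, 32 had a positive log2 fold change, compared with 52% of all 14475 genes, and 1 to 3 members were negative under other scalings. The median over the members was 0.73, and the median over all genes was 0.02. In 28 members every old library lay above every young library (82.4% of the members), a separation seen in 14.5% of all genes. Me1 was the single member whose old libraries all lay below the young ones. Counting both directions, groups were separate in 29.2% of all genes. The remaining 5 members, Scap, Idi1, Msmo1, Elovl5 and Elovl6, overlapped between the groups. A log2 fold change of at least 1 was found in 13 members and in 5.07% of all genes. Of those 13, Hmgcs1 (1.03) lay nearest to that value, and Acly (0.91) and Sqle (0.85) came closest below it.

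By edgeR's quasi-likelihood test, at an adjusted p under 0.05 over all genes and a log2 fold change of 1 or more in size, 0 members and 1 of all genes (0.00691%) were called. The lowest adjusted p among the members was 0.0531. At an unadjusted p under 0.05, edgeR gave 26 of the 34 members and 22.6% of all genes. At an adjusted p under 0.1 with the same fold threshold, it gave 12 members and 2.63% of all genes. DESeq2, the tool used by the study, called 13 members at the original thresholds, all higher in old, where it called 2.25% of all genes as higher and 5.56% in either direction. The 13 were Srebf1, Insig1, Acat2, Hmgcs1, Mvd, Lss, Cyp51, Tm7sf2, Dhcr7, Acss2, Scd, Fads1 and Fads2. limma-voom called 0 members and 0 of all genes. Because the members were proposed from this same comparison, nothing is read from their excess over these shares. With 3 against 3 libraries, an exact two-sided permutation test of any single gene cannot go below 0.10. All p-values measure the spread between these cultures, each from a different rat. In bulk RNA, more cells that express a gene and more RNA per cell cannot be told apart.

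**Figure D1:**
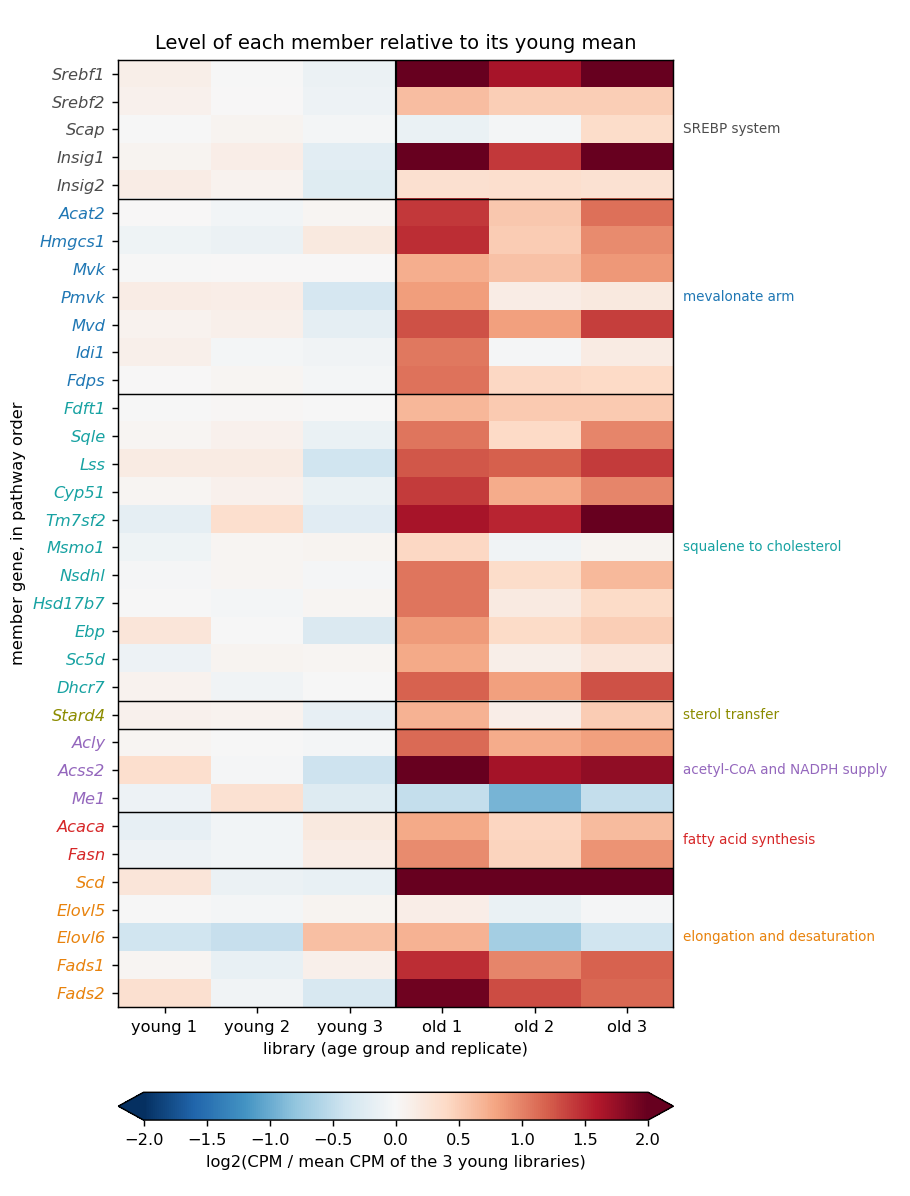
Each row is a member and each column a library, and the color is the log2 ratio of its CPM to the mean of the 3 young libraries, with ratios beyond 2 in either direction drawn at the end of the scale. Most old columns are red, old replicate 2 is the palest of them, and Me1 is the only member blue in all 3 old libraries.

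The regulators came first. Srebf1, which encodes the precursors of SREBP-1a and SREBP-1c, had 30.1, 27.4 and 25.5 CPM in the young libraries and 122, 86.7 and 139.9 CPM in the old ones, a log2 fold change of 2.07 (SE 0.19). Its lowest old library was above its highest young library by a wide margin, and old replicate 3 was highest. Insig1, whose product retains SCAP and is itself a classic SREBP target, had 69.3, 73.4 and 57.9 CPM in young and 300.1, 177 and 361 CPM in old (log2 fold change 2.06, SE 0.27). The order of the old libraries was the same for both genes, with replicate 3 highest and replicate 2 lowest. Srebf2, the gene of SREBP-2, had 73.6, 69.9 and 64.8 CPM in young and 106, 97.3 and 97.6 CPM in old (log2 fold change 0.53, SE 0.09). The groups of Srebf2 were separate and the old libraries lay close together. Insig2, which codes for the second SCAP-retaining protein, had 16.5, 15.7 and 12.7 CPM in young and 18.6, 19 and 18.5 CPM in old (0.32, SE 0.13, and 0.21 without young replicate 3). Scap, the gene of the escort itself, had 82.8, 86.2 and 81.2 CPM in young and 76.2, 81.5 and 107 CPM in old (0.08, SE 0.14). Its groups overlapped, only old replicate 3 was above the young range, and without it the log2 fold change was -0.08. Thus Srebf1 and Insig1 differed about 4-fold (4.20 and 4.18), while Srebf2, Insig2 and Scap differed by 1.44-, 1.25- and 1.06-fold.

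Promoter sequences are shown for the 3 members with the highest fold changes, Scd, Srebf1 and Insig1. Each is the 250 bases upstream of an annotated start, taken from RefSeq on the rat build GRCr8, on the strand of the gene, 5′ to 3′. Capitals mark CCAAT boxes, the site of the factor NF-Y that SREBPs are known to work with, on either strand (CCAAT or ATTGG), and the E-box CACGTG. All 4 windows are on the minus strand. They lie at chr1:253231732-253231981 for Scd, chr10:45519011-45519260 and chr10:45529165-45529414 for the 2 Srebf1 starts in the table, and chr4:8057770-8058019 for Insig1.
Scd: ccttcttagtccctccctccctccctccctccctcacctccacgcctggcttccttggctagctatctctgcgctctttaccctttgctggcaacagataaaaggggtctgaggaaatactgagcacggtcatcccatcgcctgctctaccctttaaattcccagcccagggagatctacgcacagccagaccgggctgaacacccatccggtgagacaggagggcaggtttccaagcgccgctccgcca
Srebf1, start 1: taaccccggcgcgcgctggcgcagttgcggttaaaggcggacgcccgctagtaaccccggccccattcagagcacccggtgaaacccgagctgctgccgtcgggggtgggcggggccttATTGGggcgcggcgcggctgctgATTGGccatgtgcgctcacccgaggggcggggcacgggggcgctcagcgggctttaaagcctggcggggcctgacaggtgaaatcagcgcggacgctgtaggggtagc
Srebf1, start 2: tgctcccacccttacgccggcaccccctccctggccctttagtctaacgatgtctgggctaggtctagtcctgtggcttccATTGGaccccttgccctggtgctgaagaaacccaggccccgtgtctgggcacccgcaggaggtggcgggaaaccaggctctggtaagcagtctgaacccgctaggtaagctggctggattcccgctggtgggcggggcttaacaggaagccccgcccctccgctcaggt
Insig1: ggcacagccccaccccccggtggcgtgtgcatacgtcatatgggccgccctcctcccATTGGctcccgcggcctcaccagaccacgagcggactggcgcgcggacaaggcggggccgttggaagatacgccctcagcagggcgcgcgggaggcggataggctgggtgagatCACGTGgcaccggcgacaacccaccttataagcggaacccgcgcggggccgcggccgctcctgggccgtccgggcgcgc
The first Srebf1 window held ATTGG at positions -131 and -108 from the start, the second held it at -169, and the Insig1 window held ATTGG at -193 and CACGTG at -79. No capitals occur in the Scd window.

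Of the 34 members, 27 had an entry in the RefSeq promoter table, with 28 windows of 300 bases (250 before to 50 after the start). Searched on both strands, the classic sterol regulatory element TCACCCCAC was in 0 of the 28 windows and in 0.484% of all 33469 windows of the table. With the base at N left free (TCACNCCAC), it was in 0 of 28 and in 1.12% of all windows. This says only that these letters are not in these windows, since SREBP sites vary in sequence and may lie farther away. A CCAAT box (CCAAT or ATTGG) was in 21 of the 28 windows (75.0%), compared with 37.5% of all windows and 37.3% of the 12022 windows of genes in the count table. The GC box GGGCGG, or its reverse CCGCCC, was in 23 windows (82.1%), compared with 59.7% of the windows of genes in the count table and 33.1% of all windows. The E-box CACGTG was in 4 windows (14.3%), those of Scap, Insig1, Sc5d and Elovl5, compared with 9.05% and 6.42%. Adjoining CCAAT and GC boxes can share bases, and the shares are a description of the sequence, without a test. No promoter entry was used for Pmvk, Fdft1, Sqle, Stard4, Acaca, Fasn and Elovl6.

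The mevalonate arm carries acetyl-CoA to farnesyl diphosphate, and its 7 members all had higher old means (median log2 fold change 0.73). Acat2, the cytosolic thiolase that joins 2 acetyl-CoA, had 66.2, 63.0 and 67.5 CPM in young and 174, 95.3 and 141 CPM in old (1.06, SE 0.21). Hmgcs1, which makes HMG-CoA, had 183, 179 and 222 CPM in young and 539.6, 276 and 373 CPM in old (1.03, SE 0.25). In both genes old replicate 1 was highest and old replicate 2 lowest, though still above the young range. Mvk, the mevalonate kinase, differed less but with little spread, at 19, 19.2 and 19.3 CPM in young and 31.6, 28.9 and 35.0 CPM in old (0.73, SE 0.10). Mvd, which decarboxylates mevalonate diphosphate to isopentenyl diphosphate, had 21.9, 22.5 and 18.5 CPM in young and 50.9, 36.8 and 54.3 CPM in old (1.18, SE 0.17). Among the members of this arm, Mvd had the largest fold change. Pmvk, the kinase between Mvk and Mvd, had 31.1, 30.9 and 22.2 CPM in young and 50.4, 31.2 and 32.3 CPM in old (0.44, SE 0.23). The groups of Pmvk were separate by a narrow margin, and without old replicate 1 its log2 fold change was 0.18.

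Idi1, the isomerase that makes dimethylallyl diphosphate, had 68.8, 62.1 and 60.6 CPM in young and 133, 62.6 and 71.7 CPM in old (0.48, SE 0.28). Its difference rested on old replicate 1, without which the log2 fold change was 0.07. Fdps, which condenses these units to farnesyl diphosphate, had 204, 208 and 197 CPM in young and 429, 269.6 and 266 CPM in old (0.66, SE 0.20, and 0.40 without old replicate 1). Idi1 overlaps Wdr37 in the RefSeq annotation of GRCr8, and reads of this pair may not have been told apart, as the strand setting of the counting is not given in the sources used here. Wdr37 itself had a log2 fold change of 0.11 (SE 0.16). Srebf1 likewise overlaps Rai1, which had a log2 fold change of 0.05 (SE 0.08).

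From squalene to cholesterol, all 11 members had positive fold changes, 10 with separate groups, and the median was 0.72. Fdft1, the squalene synthase, had 79.5, 82.1 and 79.6 CPM in young and 128, 116 and 115 CPM in old (0.57, SE 0.08), the smallest SE among the members. Sqle, the squalene epoxidase and a rate-limiting step, had 82.4, 85.4 and 72.9 CPM in young and 169, 106 and 158 CPM in old (0.85, SE 0.19). Lss, which cyclizes the epoxide to lanosterol, had 87.2, 87.1 and 58.9 CPM in young and 185, 178 and 205 CPM in old (1.28, SE 0.17). For Lss the old libraries agree closely, and young replicate 3 lay below the other 2 young libraries. Cyp51, the lanosterol demethylase, had 259, 267 and 230.1 CPM in young and 661, 424 and 495 CPM in old (1.06, SE 0.18). Tm7sf2, a sterol C14 reductase, had 5.56, 7.95 and 5.35 CPM in young and 19.8, 18.0 and 27.7 CPM in old (1.80, SE 0.24). It had the largest fold change among the sterol enzymes, whereas Lbr, which encodes the other C14 reductase and is no member, had a log2 fold change of -0.08. Dhcr7, the last reductase on the route through 7-dehydrocholesterol, had 21.7, 19.9 and 20.8 CPM in young and 47.1, 36.6 and 50.2 CPM in old (1.10, SE 0.14).

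The enzymes that remove the C4 methyl groups of the sterol ring work as a complex, and they differed among themselves. Msmo1, the C4 methyl oxidase, had 225, 246 and 248 CPM in young and 319, 229 and 250 CPM in old (0.15, SE 0.14), with overlapping groups. Without old replicate 1 its log2 fold change was -0.00. Nsdhl, the dehydrogenase of the next step, had 55.8, 58.1 and 55.7 CPM in young and 119, 73.0 and 88.5 CPM in old (0.72, SE 0.18). Hsd17b7, the ketoreductase that completes the step, had 6.18, 6.07 and 6.43 CPM in young and 13.1, 7.04 and 8.15 CPM in old (0.60, SE 0.25, and 0.29 without old replicate 1). Both had separate groups, and in both old replicate 1 stood above the other 2 old libraries. Ebp, the sterol isomerase, and Sc5d, the sterol C5 desaturase, had log2 fold changes of 0.59 (SE 0.18) and 0.40 (SE 0.18), also with separate groups, and without old replicate 1 the value of Sc5d was 0.19. Stard4, a carrier of cholesterol between membranes, had 11.1, 11 and 9.40 CPM in young and 17, 11.5 and 15.0 CPM in old (0.46, SE 0.17).

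**Figure D2:**
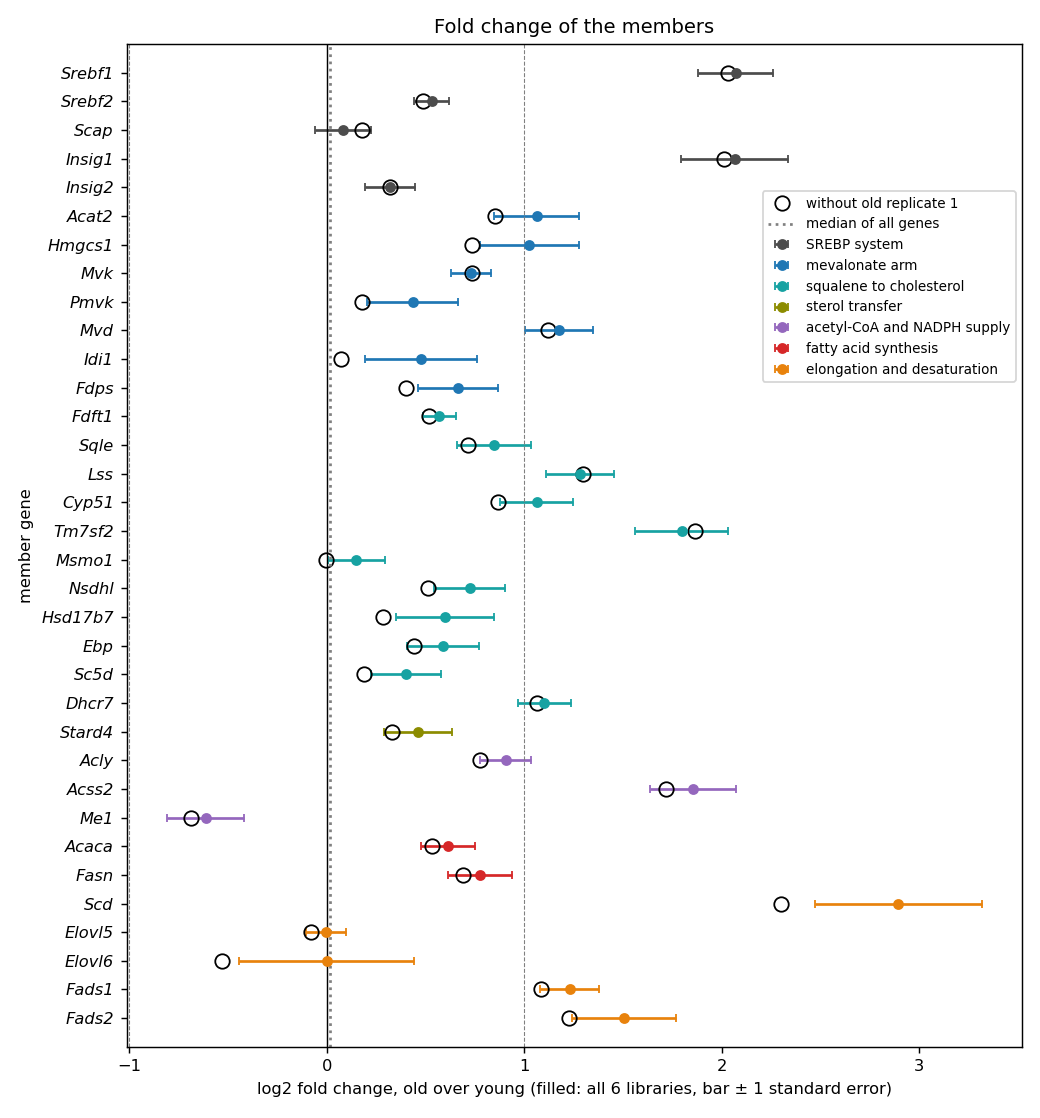
Filled points give the log2 fold change, old over young, of each member from all 6 libraries with a bar of 1 SE to each side, colored by pathway arm, and open circles give it without old replicate 1; dashed lines mark -1 and 1 and the dotted line the median of all genes (0.02). The open circles of Idi1 (0.07) and Msmo1 (-0.00) sit near 0, that of Elovl6 falls to -0.53, and those of Srebf1 and Insig1 stay within 1 SE of their filled points.

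Fatty acid synthesis draws on cytosolic acetyl-CoA and NADPH, and the 3 members that supply them went different ways. Acss2, which makes acetyl-CoA from acetate, had 24.9, 19.5 and 14.8 CPM in young and 84.2, 62.4 and 67.4 CPM in old (1.85, SE 0.22). Acly, which makes it from citrate, had 198, 192 and 188 CPM in young and 423, 321 and 339 CPM in old (0.91, SE 0.13). Both had separate groups with old replicate 1 highest. Me1, the malic enzyme, which yields NADPH, was lower in old, at 155, 206 and 139 CPM in young and 119.6, 87.4 and 120.0 CPM in old (-0.61, SE 0.19). Its groups did not overlap, and its fold change lay from -0.73 to -0.43 whichever library was omitted.

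Acaca, the acetyl-CoA carboxylase that commits acetyl-CoA to fatty acids, had 69.0, 75.0 and 88.6 CPM in young and 132, 104 and 119.9 CPM in old (0.61, SE 0.14). Fasn, the synthase that builds palmitate, had 183, 189 and 216 CPM in young and 375, 267 and 365 CPM in old (0.78, SE 0.16). For both enzymes the groups were separate, at about the size seen over the sterol enzymes (median 0.73 over 18).

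Among the 5 members that elongate or desaturate fatty acid chains, the 3 desaturases had fold changes above 1 on the log2 scale and the 2 elongases had fold changes close to 0. Scd, a stearoyl-CoA desaturase that introduces the first double bond, had 26.7, 20.9 and 20.4 CPM in young and 282, 124 and 99.3 CPM in old. Its log2 fold change of 2.89 (SE 0.42), or 7.43-fold, was the largest of the members and ranked 50 among all genes, and all old libraries were far above the young range. Much of the spread lay in old replicate 1, without which the log2 fold change was 2.30. Fads1 and Fads2 encode the delta-5 and delta-6 desaturases of polyunsaturated fatty acids. Fads1 had 79.3, 69.9 and 82.9 CPM in young and 216, 153 and 176 CPM in old (1.23, SE 0.15). Fads2 had 43.0, 32.8 and 27.6 CPM in young and 132, 84.8 and 76.2 CPM in old (1.51, SE 0.26). The groups of both genes were separate, with old replicate 1 highest.

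In the elongases the groups overlapped. Elovl5, which extends polyunsaturated chains, had 140.0, 137 and 146 CPM in young and 155, 128 and 139 CPM in old (-0.00, SE 0.10). Its sign turned when libraries were scaled by size alone (0.0103). Elovl6, which extends palmitate to stearate, had 17.3, 16.7 and 34.4 CPM in young and 36.8, 14.3 and 17.3 CPM in old (0.00, SE 0.44). For Elovl6, young replicate 3 and old replicate 1 were both about 2-fold above the other 4 libraries. Its 2 group means were therefore close (22.8 ± 10.1 and 22.8 ± 12.2 CPM, SD, n = 3), while its SE was the largest of the members. An estimate this wide does not show that the gene was unchanged, as its fold change ran from -0.53 to 0.43 depending on which library was omitted.

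**Figure D3:**
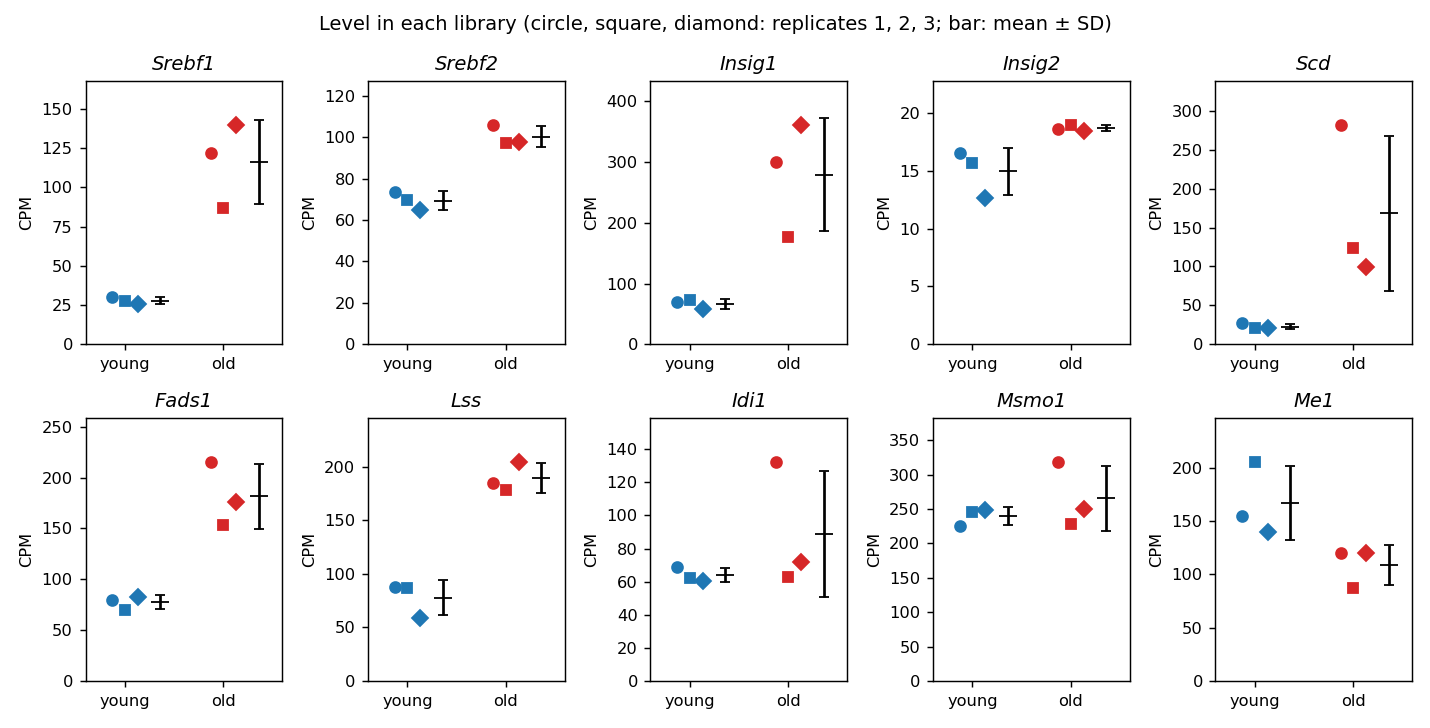
CPM of 10 members in each young (blue) and old (red) library, with circles, squares and diamonds for replicates 1, 2 and 3 and a black bar for the mean ± SD (n = 3), on linear axes that start at 0. Srebf1, Insig1, Scd, Fads1 and Lss have a gap between the groups, and Me1 is lower in all 3 old libraries. Idi1 and Msmo1 stand well above the young libraries only in old replicate 1.

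The old libraries varied more among themselves than the young ones in these genes. The median coefficient of variation over the members was 8.53% in young and 19.4% in old, compared with 9.94% and 14.6% over the 12257 genes that averaged more than 1 CPM, and it was larger in old in 27 of the 34 members. Old replicate 1 was the highest old library in 24 members, replicate 3 in 9 and replicate 2 in 1. Old replicate 2 was the lowest in 28 members. Relative to the young mean, the median log2 ratio over the members was 1.07, 0.47 and 0.73 in old replicates 1, 2 and 3 and 0.04, 0.01 and -0.06 in the young libraries. All 3 old libraries were therefore above all 3 young ones in the median of the members. The 9 members with replicate 3 highest were Srebf1, Scap, Insig1, Mvk, Mvd, Lss, Tm7sf2, Dhcr7 and Me1. In Fdps, Fdft1, Scd and Fads2, replicate 3 was instead the lowest and replicate 1 the highest.

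Leaving out old replicate 1 bore on these counts in opposite directions. The median fold change over the members then fell to 0.61, and edgeR called 10 members (Srebf1, Insig1, Mvd, Lss, Tm7sf2, Dhcr7, Acss2, Scd, Fads1 and Fads2) and 732 of all genes (5.06%). The median was 0.62 over the 18 sterol enzymes, from 0.73 with all libraries, and 0.73 over the 10 fatty acid enzymes, from 0.84. DESeq2 called the same 10 members in that setting, where it called 1377 of all genes compared with 805 with all libraries, so that fewer members and more genes overall were called. When any other library was left out, it called 12 to 14 members and 551 to 737 of all genes.

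Further genes of the same pathways were listed to see how far the pattern of the members extended. Of 59 listed genes, 49 were in the table. Of these, 27 had a positive and 22 a negative log2 fold change, with a median of 0.05. By group, the median was 1.36 for 4 genes of sterol uptake and SREBP2 targets. It was 0.11 for SREBP processing, 0.06 for sterol and isoprenoid synthesis, -0.01 for fatty acid synthesis and 0.08 for NADPH and activation. The list excludes the members and was chosen with earlier results known, so its median does not describe the pathways as wholes. edgeR called 0 of the 49, with 18 at an unadjusted p under 0.05, limma-voom called 0, and DESeq2 called 6 higher and 1 lower. In 12 of the 49 the old libraries all lay above the young ones, and in 7 all below. Over all genes, the shares under the same rules were 22.6% for the unadjusted p, 5.56% for DESeq2, 14.5% for old above young and 29.2% for separation either way.

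Erg28, the scaffold of the C4 demethylation complex, was called by DESeq2 at a log2 fold change of 1.02 (SE 0.22). The genes of the proteases that release SREBPs, Mbtps1 and Mbtps2, had separate groups and small fold changes of 0.27 (SE 0.09) and 0.30 (SE 0.10).

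Mylip, which encodes a ubiquitin ligase and is known as a target of the sterol sensor LXR, was also called by DESeq2. It had 6.85, 4.64 and 5.25 CPM in young and 20.2, 32.4 and 23.7 CPM in old (2.19, SE 0.24). In Mylip old replicate 2, the lowest old library for most members, was the highest.

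Scd2, the close paralog of Scd, had 421, 397 and 364 CPM in young and 2193, 1473 and 1061 CPM in old (2.00, SE 0.28). Its old libraries followed the order of Scd. The split between these 2 genes is uncertain, since it is not stated how reads that match both paralogs were counted. DESeq2 also called Acsl3, a fatty acyl-CoA synthetase (1.09, SE 0.22), and Lpin1, a phosphatidate phosphatase (1.41, SE 0.27), as higher, and Hacd1, a dehydratase of chain elongation, as lower (0.499-fold, SE 0.21 on the log2 scale). Acss3, a mitochondrial acyl-CoA synthetase, had a log2 fold change of 2.15 (SE 1.00) with old replicate 2 far above the others, at 3.30, 12.6 and 0.597 CPM in old and 0.842, 0.997 and 1.87 CPM in young.

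**Figure D4:**
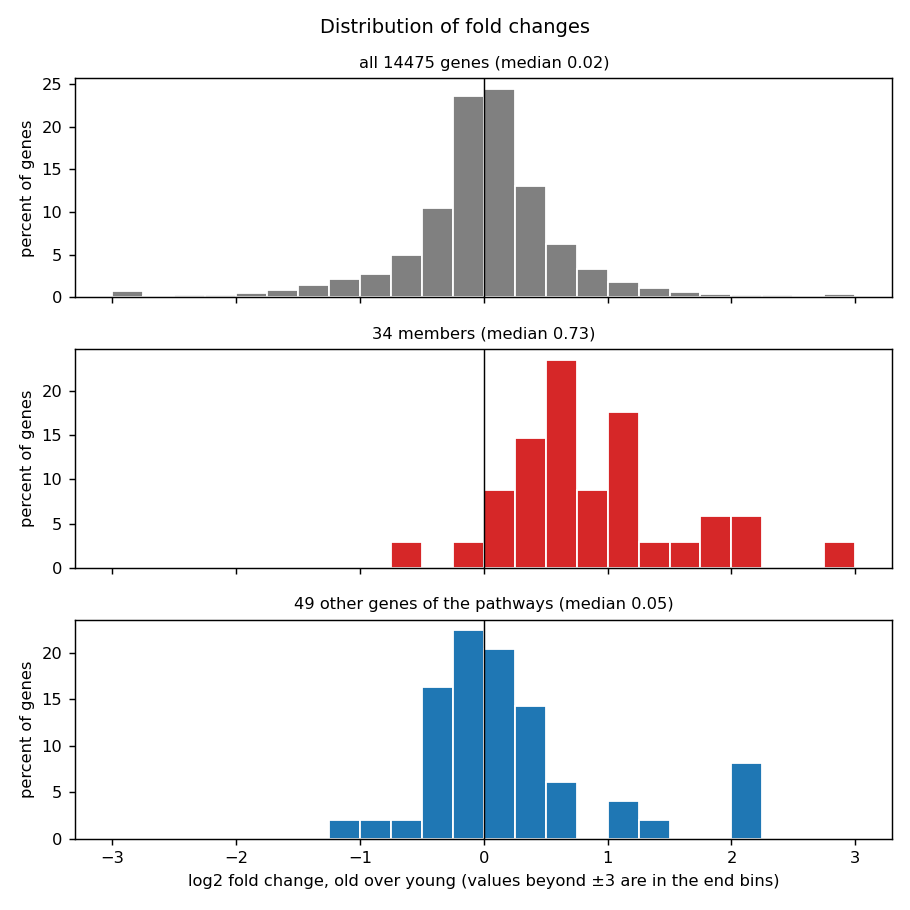
Histograms of the log2 fold change, old over young, for all 14475 genes, the 34 members and the 49 other genes of the pathways, as percent of the genes of each panel in bins of equal width. The median is 0.02 for all genes and 0.73 for the members, which were proposed from this comparison. It is 0.05 for the other genes of the pathways, a list that excludes the members and was chosen with earlier results known.

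Other features of the libraries moved with age as well, and their part in the values above was not tested. Counts per library summed to 44235674 to 59700887. Every gene of the contractile smooth muscle list was lower in old (9 of 9, with Acta2, Myh11, Cnn1, Tagln, Myocd and Lmod1 called by DESeq2), and its summed level was 11211 to 20999 CPM in young and 3450 to 5565 CPM in old. The markers Acta2, Myh11, Cnn1 and Tagln were present in all libraries, the lowest value being 64.1 CPM for Cnn1 in old replicate 3. Des was low, with 0.299 CPM in old replicate 3, and its groups overlapped (log2 fold change -0.11, SE 0.76). The fibroblast list was higher in 7 of 8 genes, with sums of 731 to 1261 CPM in young and 1588 to 2545 CPM in old. DESeq2 called Dcn and Col14a1. Groups were separate in Pdgfra, Dcn and Col14a1 and overlapped in the other genes of the list. The exception in direction was Mfap5 (log2 fold change -0.16, SE 0.18), a large part of the young sums at 595, 738 and 486 CPM. All 6 proliferation genes were lower in old, 1 of them (Mcm5) called by DESeq2. Their sum was 548, 352 and 535 CPM in young and 384, 123 and 97.6 CPM in old. Old replicate 1, the highest old library for most members, was thus the old library nearest to the young ones in proliferation genes. That library was also nearest in the contractile list, with sums of 5565, 3450 and 3535 CPM in old replicates 1, 2 and 3. The same held for the fibroblast list, at 1588, 2545 and 2398 CPM. The adipocyte list, a cell type rich in lipid synthesis, had 4 of 8 genes in the table. It summed to 8.33 to 18.7 CPM in young and 9.16 to 17.1 CPM in old. Of the 4, Lipe was higher in old with separate groups (log2 fold change 0.78, SE 0.24), and 3 were lower with overlapping groups. The defining genes Adipoq, Plin1, Cidec and Lep had no row under those symbols. In all, 1518 genes had no symbol, and genes with low counts may have been left out before deposit. A missing row therefore does not show that a gene was absent from the cells. Schwann cell genes (4 of 7 in the table) summed to 257 to 347 CPM in young and 374 to 405 CPM in old, without Sox10. Endothelial genes (5 of 8) summed to 10.9 to 17.1 CPM in young and 13.6 to 20.0 CPM in old, macrophage genes (2 of 8) to 0.407 to 2.90 and 1.57 to 2.90 CPM, and skeletal muscle genes (3 of 8) to 115 to 301 and 30.0 to 46.8 CPM. In these lists DESeq2 called Erg, Acta1 and Myh2, all lower in old. Directions within them were mixed. Of the endothelial genes 3 were higher in old and 2 lower. Of the skeletal muscle genes 1 was higher (Tnnt3, log2 fold change 0.92, SE 0.38) and 2 lower. All 4 Schwann cell genes and both macrophage genes in the table were higher.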

How the data were processed

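Libraries of polyadenylated RNA were made from SFA VSM cultures of 3 young and 3 old rats, 1 per rat. The authors deposited raw counts, whole numbers per gene and library that were not normalized and not pooled. The paper states that genes with low counts were removed before testing. DESeq2 gave the totals of the paper here (326 higher and 805 in all), so the 14475 genes may be those left by that filter. Unless stated otherwise, shares of all genes refer to these 14475. The gene identifiers are of Ensembl, while the paper names a RefSeq annotation. Per the submitters' processing notes and the methods, reads were trimmed (Trim Galore 0.6.7, cutadapt 3.5), aligned to Rnor 6.0 (STAR 2.7.10b) and counted with featureCounts (Subread 2.0.8). The settings for strand, mates and multi-mapped reads are not stated in those sources. Even numbers made up 68.7% to 71.1% of the values from 1 to 19. The library totals (44235674 to 59700887) also exceeded the sequencing depth per sample that the paper reports. Both mates of a pair may therefore have been counted, and counting error may be larger than the totals imply. The lowest member count in any library was 251.

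All 14475 genes were fitted in R 4.3.3 with edgeR 4.0.16 (TMM, quasi-likelihood F test, Benjamini-Hochberg adjustment over all genes), with young as reference and no covariate. The study's thresholds, an adjusted p under 0.05 and a log2 fold change of 1 or more in size, defined a call. The SE is the size of the log2 fold change over the root of F. Alternatives were limma-voom (limma 3.58.1), DESeq2 1.42.0 (292 genes had no adjusted p), other scalings, filters on low counts, halved counts, thresholds, a replicate block and each library left out. The arm medians with libraries left out were added after the data had been seen. The members and gene lists were chosen with earlier results of these data known. CPM in all libraries was given for the 5 SREBP system genes, members called by edgeR or DESeq2 and the 12 largest fold changes, and for further members for completeness. Of the other pathway genes, those called and those past a log2 fold change of 1 in size were named, and some genes the rule covers are not reported here. Lbr, Mbtps1, Mbtps2, Rai1 and Wdr37 were named after their values were seen. The fits were tested on simulated data. The 1518 genes without a symbol stayed in the fit. Promoters were matched by symbol to RefSeq on GRCr8, a build other than that of the counts, and coordinates refer to it alone.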

Additional observations from a re-analysis of the deposited data

How the results depend on the processing

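The median log2 fold change of the members stayed between 0.61 and 0.83 over all alternatives, and between 28 and 31 members had separate groups. Calls depended on the tool and the filter, and the cause was not tested. Of the members, DESeq2 called 13, edgeR with a minimum count of 50 called 7, an adjusted p threshold of 0.1 gave 12, and leaving out each library in turn gave 0 to 10, the 10 without old replicate 1. For all genes these counts were 805 (5.56%), 65 of the 12262 that passed that filter, 381 (2.63%) and 0 to 732 (up to 5.06%). limma-voom called 0 of all genes. For the other pathway genes the counts were 7, 2, 7 and 0 to 5. Calls by DESeq2 ranged from 10 to 14 members and from 551 to 1377 of all genes over the libraries left out, with the fewest members and the most genes without old replicate 1. Scaling by library size alone left 1 member lower in old, and leaving out libraries left 1 to 4. Direction reversed in 4 members that were close to 0. Scap ranged from -0.0811 to 0.18 with libraries left out (reversed without old replicate 3), Msmo1 from -0.0019 to 0.25 and Elovl5 from -0.0782 to 0.0568, with 0.0103 for Elovl5 by library size alone. Elovl6 was -0.0069 with RLE size factors and with DESeq2, -0.0408 with limma-voom, -0.0022 with the minimum count of 50, -0.0018 above 1 CPM, -0.0012 with halved counts, -0.0480 with the replicate block and -0.53 to 0.43 with libraries left out. With the replicate block, edgeR called 0 members, 0 other pathway genes and 1 of all genes, and the median of the members was 0.71. Deviations of same-numbered libraries correlated at 0.05, 0.29 and 0.28, so the numbers were not shown to pair the cultures. Of the values of single named genes under the alternatives, 570 kept direction and side of the threshold, 44 passed it only there and 16 reversed. The main edgeR fit called none of these genes, so no value could lose a call. The 570 were therefore uncalled in both fits, and that count does not show how steady their size was. The lowest member count of 251 leaves the members well above the depth at which values near 0 arise.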
